A study of Pinus pinaster with 4 samples.

Results

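UDP-glycosyltransferases were examined in needles of maritime pine (*Pinus pinaster*), through 3 transcript contigs, sp_v3.0_unigene6106, sp_v3.0_unigene7174 and sp_v3.0_unigene44096, among the 17571 genes (contigs) of the RNA-Seq table. These contigs were chosen from those described as UDP-glycosyltransferases in the array table of the study, of which only the rows with the lowest array p are held. The RNA-Seq table lists all of them. Another contig, sp_v3.0_unigene93635, meets both conditions but was not among the members given. The members are therefore not the complete set, and that contig is described below. The arrays carried RNA of the same plants, so the members were selected on the contrast of the provenances itself. Their difference between the provenances is therefore given as a description, without a test, and nothing is read from its direction. The RNA-Seq covered 2 plants of the Leiria provenance (Portugal, libraries L6 and L7) and 2 plants of the Tamrabta provenance (Atlas mountains of Morocco, libraries T3 and T6), with 1 library per plant and no treatment. All 4 were rooted cuttings of a clonal collection, potted at 17 months of age, grown and pruned in the same greenhouse in northern Spain and harvested at the same time. Whether L6 and L7, or T3 and T6, were cuttings of 1 clone is not stated, and 2 plants stand for each population.

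UDP-glycosyltransferases move a sugar, most often glucose, from a UDP-sugar onto small acceptor molecules. In plants the acceptors include flavonoids, phenylpropanoids, hormones and foreign compounds, and the sugar changes how soluble, stable and reactive the molecule is and lets it be stored in the vacuole. The family is large and its members resemble each other, so a sequence alone seldom names the acceptor. The closest *Arabidopsis thaliana* gene listed for sp_v3.0_unigene6106 was AT2G36770, which lies in the UGT73C group, where enzymes that glucosylate flavonols, brassinosteroids and foreign compounds are known in that species. For sp_v3.0_unigene44096 it was AT2G36970, which codes for UGT86A1, and for sp_v3.0_unigene7174 it was AT2G28080. The contigs sp_v3.0_unigene7174 and sp_v3.0_unigene44096 are linked through the descriptions of other contigs. A contig that shares its protein match with sp_v3.0_unigene7174 was assigned to AT2G36970, and a contig that shares its protein match with sp_v3.0_unigene44096 was assigned to AT2G28080. The acceptors of the pine enzymes were not measured.

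Levels are TMM-scaled CPM, counts relative to library size scaled with factors that correct for library composition. They are compared between libraries and not between contigs, whose lengths were not used here. The counts recovered from these values summed to between 40019608 and 58835449 per library, and the lowest count of a member in any library was 229, far above the floor of 3 counts taken as detectable. Intervals in brackets are exact 95% intervals of the counts and cover counting error only, not differences between plants. The libraries were checked for green tissue with 4 photosynthesis genes, a check that does not tell needles from other green tissue. These genes code for the oxygen-evolving enhancer protein 2, Lhca4, the photosystem I subunit V and a chloroplast ATP synthase subunit. Their summed level was 6205 and 4549 CPM in L6 and L7, and 3523 and 2823 CPM in T3 and T6, so photosynthesis genes were expressed in all 4 libraries. Each of the 4 genes had this same order of libraries, and they too come from the array rows with the lowest p. The order is the reverse of that of sp_v3.0_unigene7174 below, and its part in the result was not tested. Over all genes, 9.20% had the rising order L6, L7, T3, T6 and 9.24% the falling one. In needle tissue, fewer cells of a type and less RNA per cell cannot be told apart.

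In sp_v3.0_unigene6106, described as a putative UDP-glucosyltransferase by a castor bean match, the plants of a provenance lay close together and the provenances far apart. It had 38.7 (36.7 to 40.8) and 42.4 (40.8 to 44.1) CPM in L6 and L7 of Leiria, against 144 (141 to 148) and 140 (137 to 144) CPM in T3 and T6 of Tamrabta. The provenances did not overlap. Leiria averaged 40.6 ± 2.65 CPM and Tamrabta 142 ± 3.12 CPM (SD, n = 2 each). The Leiria mean was 0.285 times the Tamrabta mean, and the logFC (log2(CPM + 0.5) in Leiria minus that in Tamrabta) was -1.80 with a standard error of 0.15. The plants of Tamrabta differed by -0.045 on the log2 scale (T6 minus T3), a ratio of 0.969 whose interval of 0.937 to 1.00 includes equality. With each library scaled to the same sum the sign of this small difference changed, to 0.080. The plants of Leiria differed by 0.13 (L7 minus L6), a ratio of 1.10 (1.03 to 1.17).

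In sp_v3.0_unigene7174, also matched to a putative castor bean UDP-glucosyltransferase, the plants of Tamrabta differed from each other as well as from Leiria. It had 6.29 (5.51 to 7.17) and 8.31 (7.59 to 9.08) CPM in L6 and L7 of Leiria, against 31.6 (30.1 to 33.2) and 76.4 (73.9 to 79.0) CPM in T3 and T6 of Tamrabta. Both Tamrabta plants were above both Leiria plants, and T6 was far above T3. The mean was 7.30 ± 1.42 CPM in Leiria and 54.0 ± 31.7 CPM in Tamrabta (SD, n = 2 each), a Leiria mean 0.135 times the Tamrabta mean. The logFC of -2.68 (standard error 0.47) was the lowest of the 3 contigs. The ratio of T6 to T3 was 2.42 (2.28 to 2.57), more than counting error gives. That difference of 1.26 on the log2 scale was 46.9% of the size of the logFC. Against T3, the lower Tamrabta plant, L6 was at 0.199 times (0.173 to 0.229) and L7 at 0.263 times (0.237 to 0.291) its level. The plants of Leiria were also apart by more than counting error, with a ratio of L7 to L6 of 1.32 (1.13 to 1.55).

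In sp_v3.0_unigene44096, matched to a UDP-glucose:glucosyltransferase of wolfberry, 1 plant stood apart from the other 3. The levels were 6.57 (5.76 to 7.46) and 6.15 (5.53 to 6.82) CPM in L6 and L7 of Leiria, against 8.22 (7.45 to 9.05) and 27.6 (26.1 to 29.1) CPM in T3 and T6 of Tamrabta. T3 was near the Leiria plants, although the provenances did not overlap. Leiria averaged 6.36 ± 0.294 CPM and Tamrabta 17.9 ± 13.7 CPM (SD, n = 2 each). The logFC was -1.19 with a standard error of 0.59, the largest standard error of the 3. The ratio of T6 to T3 was 3.35 (3.00 to 3.76), or 1.69 on the log2 scale, so the difference between the Tamrabta plants was 142% of the size of the logFC. L6 was at 0.799 times the level of T3 (0.679 to 0.939) and L7 at 0.748 times (0.648 to 0.864), so T3 exceeded each Leiria plant by more than counting error. The gap between the highest Leiria plant and the lowest Tamrabta plant was only -0.30 on the log2 scale, against -1.71 for sp_v3.0_unigene6106 and -1.87 for sp_v3.0_unigene7174. The plants of Leiria could not be told apart, with a ratio of L7 to L6 of 0.937 (0.793 to 1.11).

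**Figure D1:**
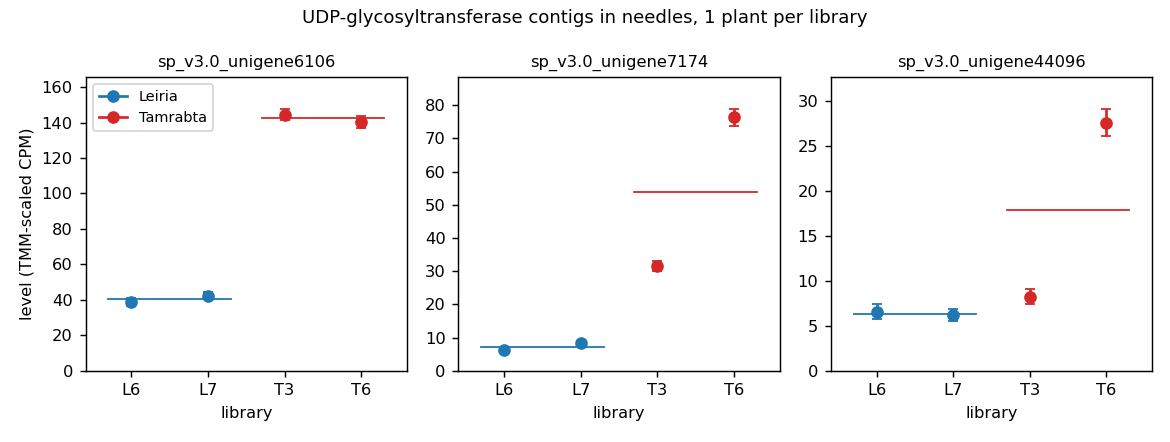
Level of the 3 UDP-glycosyltransferase contigs in each library, in TMM-scaled CPM on axes that start at 0, with a separate axis for each contig. Points are single plants, bars are exact 95% counting intervals and horizontal lines are means of 2 plants; T3 and T6 nearly coincide for sp_v3.0_unigene6106, at 144 and 140 CPM, while T3 lies near the Leiria plants for sp_v3.0_unigene44096, at 8.22 CPM.

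All 3 contigs had both Tamrabta plants above both Leiria plants, as had 23.9% of all genes, and all 3 had a logFC under -1, as had 4.29% of all genes. The described contig outside the members, sp_v3.0_unigene93635, also had both Tamrabta plants above both Leiria plants, but its logFC was -0.87. Since the choice used this contrast, these counts describe the members and say nothing more. Over all genes, limma called 0.0455% as higher in Tamrabta, where a call needs an absolute logFC over 1 and an adjusted p below 0.05, and the exact test of edgeR on the recovered counts called 2.49%. No call or p is given for the members, since they were chosen on the same contrast.

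The choice did not use the difference between plants of 1 provenance directly, although an array p depends on the spread of the same plants. Over all genes the median absolute difference was 0.31 on the log2 scale between T6 and T3 and 0.21 between L7 and L6. A difference between T6 and T3 at least as large as that of sp_v3.0_unigene44096 was found in 3.67% of all genes, and one at least as large as that of sp_v3.0_unigene7174 in 6.87%. For sp_v3.0_unigene6106 it was 91.7%, so most genes differed more between these plants. In Leiria the members did not stand out in this way. A difference between L7 and L6 at least as large was found in 76.8% of all genes for sp_v3.0_unigene44096, in 27.3% for sp_v3.0_unigene7174 and in 65.9% for sp_v3.0_unigene6106. T6 was at least 2 times T3 for 2 of the 3 contigs and for 10.1% of all genes. The same 2 contigs also had both Tamrabta plants above both Leiria plants, which the choice favoured. Of the 4202 genes that separated the provenances in this direction, 278 had T6 at least 2 times T3. These were 1.58% of all genes, a share that is not read as rarity, since the choice used the separation. With 1 library per plant, a difference between plants cannot be told apart from a difference between libraries.

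**Figure D2:**
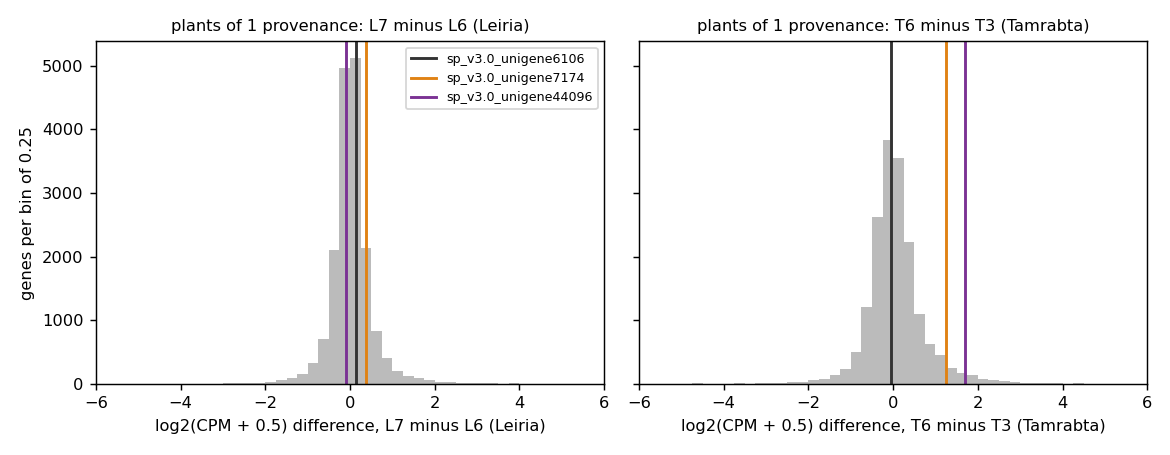
Number of genes (bars, bins of 0.25) by the log2(CPM + 0.5) difference between the plants of Leiria on the left and between the plants of Tamrabta on the right, with the 3 contigs as coloured lines; the few genes beyond 6 are counted in the end bins. In Leiria all 3 lines lie in the body of the distribution, while in Tamrabta sp_v3.0_unigene7174, at 1.26, and sp_v3.0_unigene44096, at 1.69, lie in its upper tail.

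Leaving out a Tamrabta plant moved the difference of the provenances most in the contigs in which T3 and T6 were apart. Without T6 the logFC of sp_v3.0_unigene44096 was -0.35 (standard error 0.22), and without T3 it was -2.03 (standard error 0.20). For sp_v3.0_unigene7174 the values were -2.05 (standard error 0.26) without T6 and -3.31 (standard error 0.25) without T3. For sp_v3.0_unigene6106 the logFC stayed between -1.86 and -1.73 whichever library was left out. Each of these fits has 1 library in a provenance, which is assumed to vary like those of the other, so the standard errors are those of that assumption. The logFC of all 3 contigs was negative under each of the 15 settings run, but nothing is read from this. The members were chosen on this contrast. The provenances did not overlap, so leaving out a library could not change the sign.

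**Figure D3:**
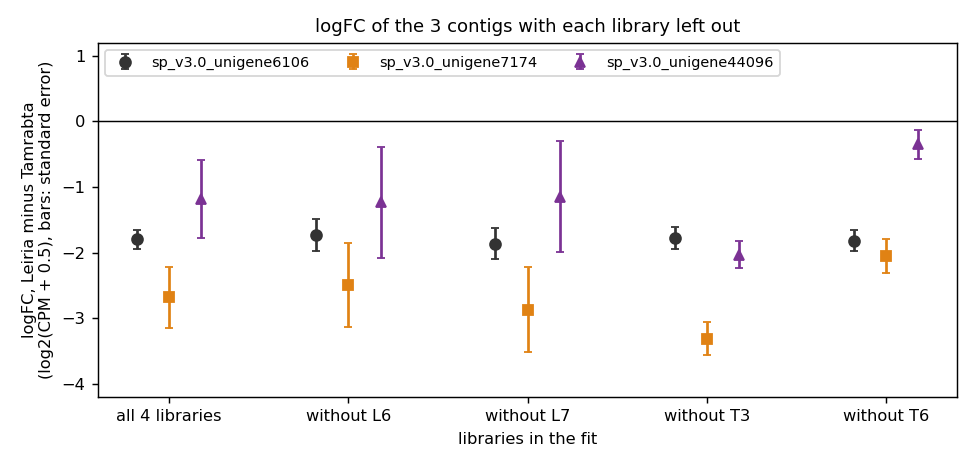
LogFC (log2(CPM + 0.5) in Leiria minus that in Tamrabta, bars: standard error) of the 3 contigs with all 4 libraries and with each library left out. The points of sp_v3.0_unigene6106 stay between -1.86 and -1.73, while those of sp_v3.0_unigene44096 reach -0.35 without T6 and -2.03 without T3.

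The members also differed from each other in their course over the libraries. After each gene was centred on its mean of the 4 libraries, the root mean square difference on the log2 scale was 0.64 between sp_v3.0_unigene6106 and sp_v3.0_unigene7174, 0.69 between sp_v3.0_unigene6106 and sp_v3.0_unigene44096 and 0.78 between sp_v3.0_unigene7174 and sp_v3.0_unigene44096. Among the 16361 other genes with a mean of at least 1 CPM some were nearer, as the nearest of so many are bound to be. Ranked by distance from sp_v3.0_unigene7174, sp_v3.0_unigene6106 was number 177 and sp_v3.0_unigene44096 number 298. From sp_v3.0_unigene6106, sp_v3.0_unigene7174 was number 1053 and sp_v3.0_unigene44096 number 1427. From sp_v3.0_unigene44096, sp_v3.0_unigene6106 was number 2285 and sp_v3.0_unigene7174 number 4585. The 2 nearest to sp_v3.0_unigene6106 were sp_v3.0_unigene31422 at 0.070 and sp_v3.0_unigene184520 at 0.072, neither of which has a description here. The second was low, with 0.275 and 0.274 CPM in the Leiria plants L6 and L7, against 2.00 and 2.02 CPM in the Tamrabta plants T3 and T6. Where a level is under the pseudocount of 0.5, as in its Leiria plants, the scale shrinks the difference, so its fold between the provenances was larger than that of the member despite the small distance. Descriptions were at hand only for contigs in the array rows held. The nearest gene with one was sp_v3.0_unigene127103, the alpha subunit of T-complex protein 1, a chaperonin that folds actin and tubulin. By distance this gene was number 8. That gene had 7.97 and 10.3 CPM in the Leiria plants L6 and L7, against 28.4 and 28.4 CPM in the Tamrabta plants T3 and T6, at a distance of 0.13.

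The 2 genes nearest to sp_v3.0_unigene7174 were sp_v3.0_unigene143777 at 0.083 and sp_v3.0_unigene44061 at 0.11, both without a description. Like the member, sp_v3.0_unigene44061 stepped up in each library, with 6.98 and 9.09 CPM in the Leiria plants L6 and L7, against 38.5 and 100.2 CPM in the Tamrabta plants T3 and T6. The nearest described gene was sp_v3.0_unigene206762, a class IV chitinase, of an enzyme group that cuts chitin and is known from plant defence. By distance this gene was number 5. It was low in Leiria, with 0.165 and 0.137 CPM (6 and 8 counts) in L6 and L7, against 1.80 and 5.62 CPM in T3 and T6, at a distance of 0.18. Its Leiria levels too were under the pseudocount, so the scale shrinks its difference. As a ratio of CPM it differed more between the provenances than the member did, but that ratio rests on few Leiria counts.

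For sp_v3.0_unigene44096 the 2 nearest genes were sp_v3.0_unigene17726 at 0.060 and sp_v3.0_unigene28716 at 0.076, again without a description. The first was an abundant transcript with 646 and 607 CPM in the Leiria plants L6 and L7, against 837 and 2394 CPM in the Tamrabta plants T3 and T6. The nearest described gene was sp_v3.0_unigene4806, matched to the potato wound-induced protein WIN1, a chitin-binding protein made after wounding. By distance this gene was number 13. Its levels were 1.46 and 1.66 CPM in the Leiria plants L6 and L7, against 2.62 and 6.98 CPM in the Tamrabta plants T3 and T6, at a distance of 0.17. Within a distance of 0.25 there were 49 genes for sp_v3.0_unigene6106, 12 for sp_v3.0_unigene7174 and 49 for sp_v3.0_unigene44096. With 4 libraries in the measure, genes can be near each other in many ways, and no p is given.

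**Figure D4:**
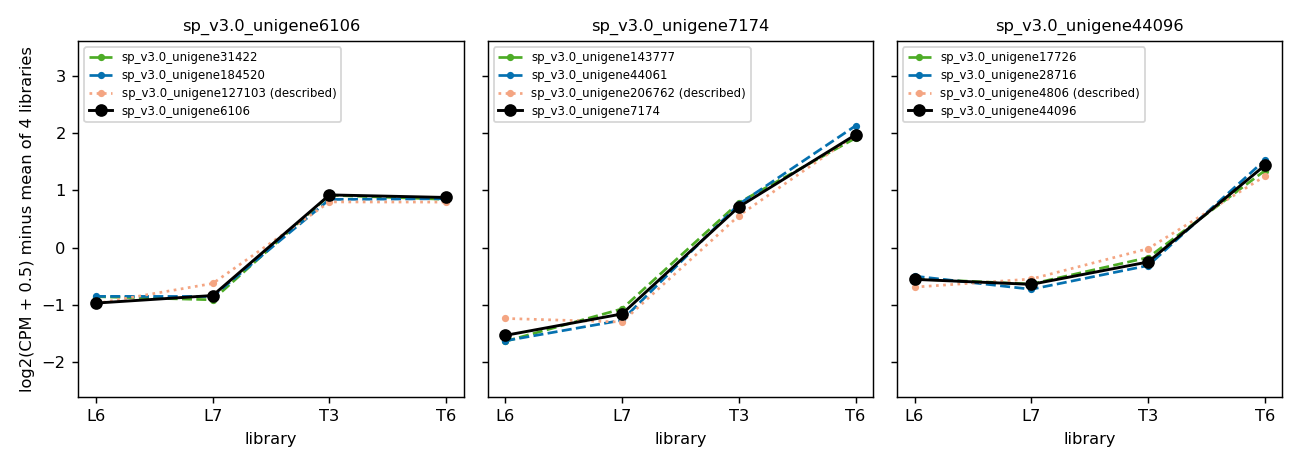
Centred log2(CPM + 0.5) in each library for the 3 contigs (black), the 2 nearest genes of each (dashed) and the nearest described gene (dotted). The courses differ between the panels, with a single step between Leiria and Tamrabta for sp_v3.0_unigene6106, steps at T3 and T6 for sp_v3.0_unigene7174 and a rise mainly in T6 for sp_v3.0_unigene44096.

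The array rows held describe 10 contigs as UDP-glycosyltransferases, and 4 of them, including the 3 members, had an RNA-Seq row. The other was sp_v3.0_unigene93635, whose closest *Arabidopsis* gene is AT1G73880. It had 23.1 and 22.3 CPM in the Leiria plants L6 and L7, against 35.0 and 50.3 CPM in the Tamrabta plants T3 and T6, again with Tamrabta above Leiria and T6 above T3. Its ratio of T6 to T3 was 1.44 (1.35 to 1.53), its logFC was -0.87 (standard error 0.23), and leaving out a library moved that logFC to between -1.13 and -0.61. The counting could have shared reads between contigs of similar sequence, so the values of single family members are uncertain to that extent. The remaining 6 contigs, which include a match to a tobacco salicylic acid glucosyltransferase and one to the flavonol glucosyltransferase UGT73B4 of *Arabidopsis*, were not analysed here.

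Enzymes that make or handle acceptors and sugars were described from the same array rows, so they share the selection. Of 17 listed flavonoid and phenylpropanoid genes, 7 had a row, with a logFC under 0 for 6 and above 0 for 1 and a median of -2.24. Over all genes 48.8% had a logFC under 0 and the median was 0.011. The selection favours genes far from 0, so nothing is read from this gap. The lowest was a putative cinnamoyl CoA reductase of lignin synthesis (sp_v3.0_unigene23552), at -2.53 (standard error 0.29). The highest was a phenylcoumaran benzylic ether reductase (sp_v3.0_unigene16601), at 3.15 (standard error 0.37). T6 was at least 2 times T3 in 2 of the 3 members and in 10.1% of all genes. The other described UDP-glycosyltransferase, sp_v3.0_unigene93635, did not reach this, with a ratio of 1.44. Of the 7 genes, 1 had it, sp_v3.0_unigene28159. Its levels were 2.72 and 5.15 CPM in L6 and L7 of Leiria, against 13.5 and 28.7 CPM in T3 and T6 of Tamrabta. It is described as an anthocyanidin reductase, although its closest *Arabidopsis* gene, AT5G42800, codes for dihydroflavonol reductase. The difference in counts was not tested, and with so few genes in each list none is read from it. Of 9 listed glutathione S-transferases, the other large family that conjugates small molecules, 4 had a row, and none had T6 at least 2 times T3. Their logFC fell into pairs, at -3.01 and -2.49 and at -0.36 and -0.07, around a median of -1.42 that no gene had, and the provenances overlapped in the gene at -0.07. In the gene at -0.36 they did not overlap, but the counting intervals of L7 and T6 did. Its levels there were 9.64 (8.86 to 10.5) CPM in L7 and 9.78 (8.89 to 10.7) CPM in T6. The lowest logFC of these glutathione S-transferases was that of a tau class enzyme (sp_v3.0_unigene1599), at -3.01 (standard error 0.42). It had 30.4 ± 12.6 CPM in Leiria and 248 ± 95.1 CPM in Tamrabta (SD, n = 2 each).

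A beta-glucosidase (sp_v3.0_unigene2696), of the enzymes that remove glucose from such products, had 126 and 81.9 CPM in the Leiria plants L6 and L7, against 110 and 118 CPM in the Tamrabta plants T3 and T6. The provenances overlapped, and the logFC was -0.16 (standard error 0.26), or 0.15 without L7. A UDP-galactose transporter (sp_v3.0_unigene16463), which carries a UDP-sugar across a membrane, had 10.5 and 15.5 CPM in the Leiria plants L6 and L7, against 16.6 and 28.9 CPM in the Tamrabta plants T3 and T6. It did not overlap between the provenances, but L7 and T3 differed by less than counting error, and its logFC was -0.76 (standard error 0.36).

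**Figure D5:**
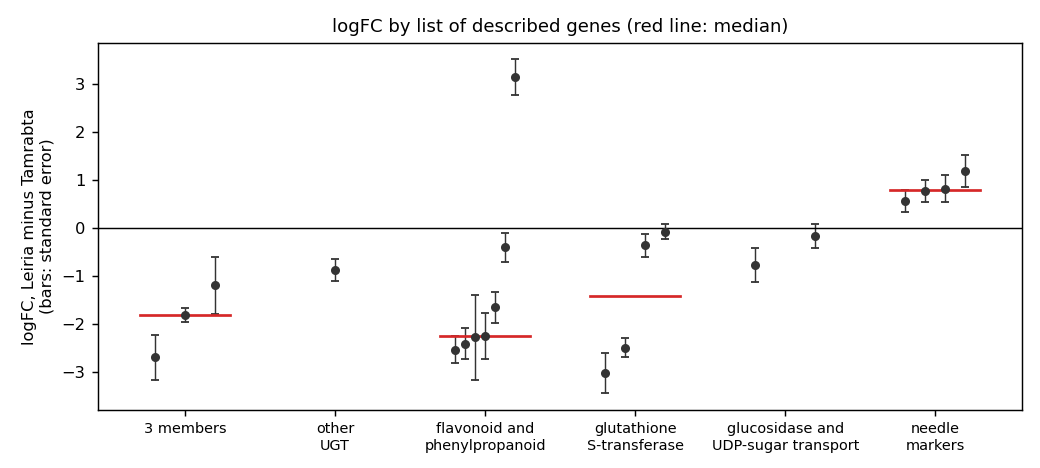
LogFC (log2(CPM + 0.5) in Leiria minus that in Tamrabta, bars: standard error) of the 3 members, the other UDP-glycosyltransferase (UGT), and the genes of the lists described from the array rows, with list medians in red where a list has 3 or more genes. The 3 members lie between -2.68 and -1.19 and the flavonoid and phenylpropanoid genes between -2.53 and 3.15. The photosynthesis genes, labelled needle markers, lie above 0. All were taken from rows with the lowest array p.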

How the data were processed

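The authors trimmed the paired reads with SeqTrimNext, mapped concordant pairs to contigs of SustainPineDB with Bowtie2, counted them per contig and deposited CPM scaled with TMM factors of edgeR, a signal whose columns need not sum to 1000000. The study describes a filter on low CPM, which the libraries of a single provenance could meet. Shares of all genes are therefore shares of the contigs deposited, not of every contig of the reference. Tool versions, use of strand and handling of pairs matching several contigs: not given in the sources used here. Per the file headers the columns were L6, L7, T3 and T6. Each was a whole multiple of 1 step, so that whole counts (within 0.01) were recovered for 100% of 70284 values. The libraries of a provenance differed by more than sampling noise.

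Provenances were compared on log2(CPM + 0.5) in R 4.3.3 with limma 3.58.1, a trended prior variance and Benjamini-Hochberg adjustment over 17571 genes. Alternatives were edgeR 4.0.16 (exact and quasi-likelihood tests) and DESeq2 1.42.0 on the recovered counts, a pseudocount of 0.1 or 1, only genes whose mean CPM reached 5, equal library sums, quantile normalization, no trend, the replicate number as a block and each library left out. The statistics were tested on simulated data. Genes were named by a rule: the members, other described UDP-glycosyltransferases, the 2 nearest genes and the nearest described gene of each member (lowest root mean square difference), and up to 2 genes of each list. Contig sp_v3.0_unigene28159 was named after its values were seen. Members and lists were chosen with earlier results of these data known.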

Additional observations from a re-analysis of the deposited data

How the results depend on the processing

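The number of genes called over the whole table depended on the test. It was 27 with limma, 1053 with the edgeR exact test, 1088 with DESeq2 and 2 with the quasi-likelihood test, and it was 17 with a pseudocount of 1, 5 with a mean CPM of at least 5 and between 0 (without L6, L7 or T3, with 1311 to 3505 genes at an unadjusted p under 0.05) and 32 (without T6) with 1 library left out. The replicate numbers of the labels pair no plants. As a block they gave 9 calls. In this balanced design the block cannot change a logFC, and the standard error became 0.15 for sp_v3.0_unigene6106, 0.28 for sp_v3.0_unigene7174 (0.47 without the block) and 0.49 for sp_v3.0_unigene44096 (0.59 without the block). The deviations of libraries with the same number had a correlation of 0.20 across genes. The share of calls higher in Leiria was 19 of 27, against 11 of 19 after quantile normalization, 11 of 18 with a pseudocount of 0.1 and 10 of 17 with a pseudocount of 1.

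With equal library sums, which gave all genes a median logFC of -0.13, the logFC of sp_v3.0_unigene6106 was -1.95. Its difference between T6 and T3 was 0.080 with equal sums and 0.046 after quantile normalization, and that of sp_v3.0_unigene7174 was 1.38 with equal sums. The logFC with 1 library removed ran between -1.86 and -1.73 in sp_v3.0_unigene6106, between -3.31 and -2.05 for sp_v3.0_unigene7174 and between -2.03 and -0.35 for sp_v3.0_unigene44096. The share of genes with a difference between T6 and T3 at least as large ran from 85.6% to 92.2% for sp_v3.0_unigene6106, from 5.44% to 9.28% for sp_v3.0_unigene7174 and from 2.91% to 5.26% for sp_v3.0_unigene44096. The other settings moved the logFC and the T6 to T3 differences by less than the spread between plants or, for T6 against T3, by less than counting error. For some settings this was fixed in advance. With 2 plants per provenance, leaving out 1 library cannot move a logFC by more than that spread. The filter on mean CPM changes neither value, and the block cannot change a logFC. With 2 plants per provenance and 1 library per plant, no setting separates the provenance from the plants.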
